A study of Mus musculus with 8 samples.

Results

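The genes described here are 37 genes of mitosis and the spindle checkpoint, chosen by name for their roles in cell division. They were chosen with earlier results of these data known, so counts over them are descriptions. All 37 were measured, among 19938 genes on the arrays. Each is represented by a probe set annotated with that gene's symbol only. Top2a alone had more than 1 such probe set, and the set with the highest mean over the 8 arrays was used. Expression was measured in E18.5 mouse lung cells, from shortly before birth, that had been selected with magnetic beads for Epcam, a surface protein of epithelial cells. The 4 knockout arrays carry the label Mst1/2 CKO: the Hippo kinases Mst1 and Mst2 were deleted conditionally with ShhCre, a recombinase expressed from the Shh gene in epithelial progenitors of the developing lung. The 4 control arrays are labelled Control, and the labels do not state their alleles, whether they carry Cre, or whether animals were pooled. Each array is called a biological replicate, and if the samples do not come from separate animals the p-values measure only the spread between these samples. Stk4, which encodes Mst1, fell by 0.30 (SE 0.076, limma adjusted p = 0.0188). That call was lost without knockout replicate 3 (-0.28, adjusted p = 0.0592) and without knockout replicates 1 and 4 together (-0.29, adjusted p = 0.0703). It was also lost with the mesenchymal or endothelial marker means described below as covariates (-0.18 and -0.19, adjusted p = 0.441 and 0.681). Whether the Stk4 probe set lies in the deleted part is not known. The Mst2 gene, Stk3, was not analysed here.

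A dividing cell condenses its chromosomes, attaches each of them through a protein plate at the centromere, the kinetochore, to the microtubules of the spindle, and separates the copies before it pinches apart. The spindle checkpoint holds separation back while any kinetochore is unattached, by blocking Cdc20, the activator of the anaphase-promoting complex, a ubiquitin ligase that marks cyclin B and securin for destruction. Most transcripts of this machinery are abundant from G2 to mitosis and scarce in resting cells, so their level in a tissue is used widely as a sign of how many cells are cycling. The Hippo kinases restrain the coactivators Yap and Taz, which promote growth in many epithelia. The comparison addresses how these transcripts differ in Epcam-selected lung cells once both kinases are targeted for deletion. The activity of Yap and Taz was not examined here.

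All 37 genes were higher on average in knockout than in control arrays. In limma's test, at a threshold of 0.05 after Benjamini-Hochberg adjustment across the whole table, 32 of the 37 rose, 0 fell and 5 did not pass. Of all genes tested, 8.6% rose and 10.2% fell. The median difference of the 37 genes was 0.57 on the log2 scale, a 1.49-fold higher level, against a median of -0.02 over all genes, and the single differences ran from 0.05 (Bub3) to 0.98 (Hmmr). No gene reached a 2-fold difference. In 17 genes the rise was at least 1.5-fold, a size that 1.92% of all genes reached with a passed test. In 31 of the 37 genes all 4 knockout values lay above all 4 control values, a pattern found in 10.2% of all genes. In a bulk sample, more dividing cells and more of these transcripts per dividing cell cannot be told apart.

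**Figure D1:**
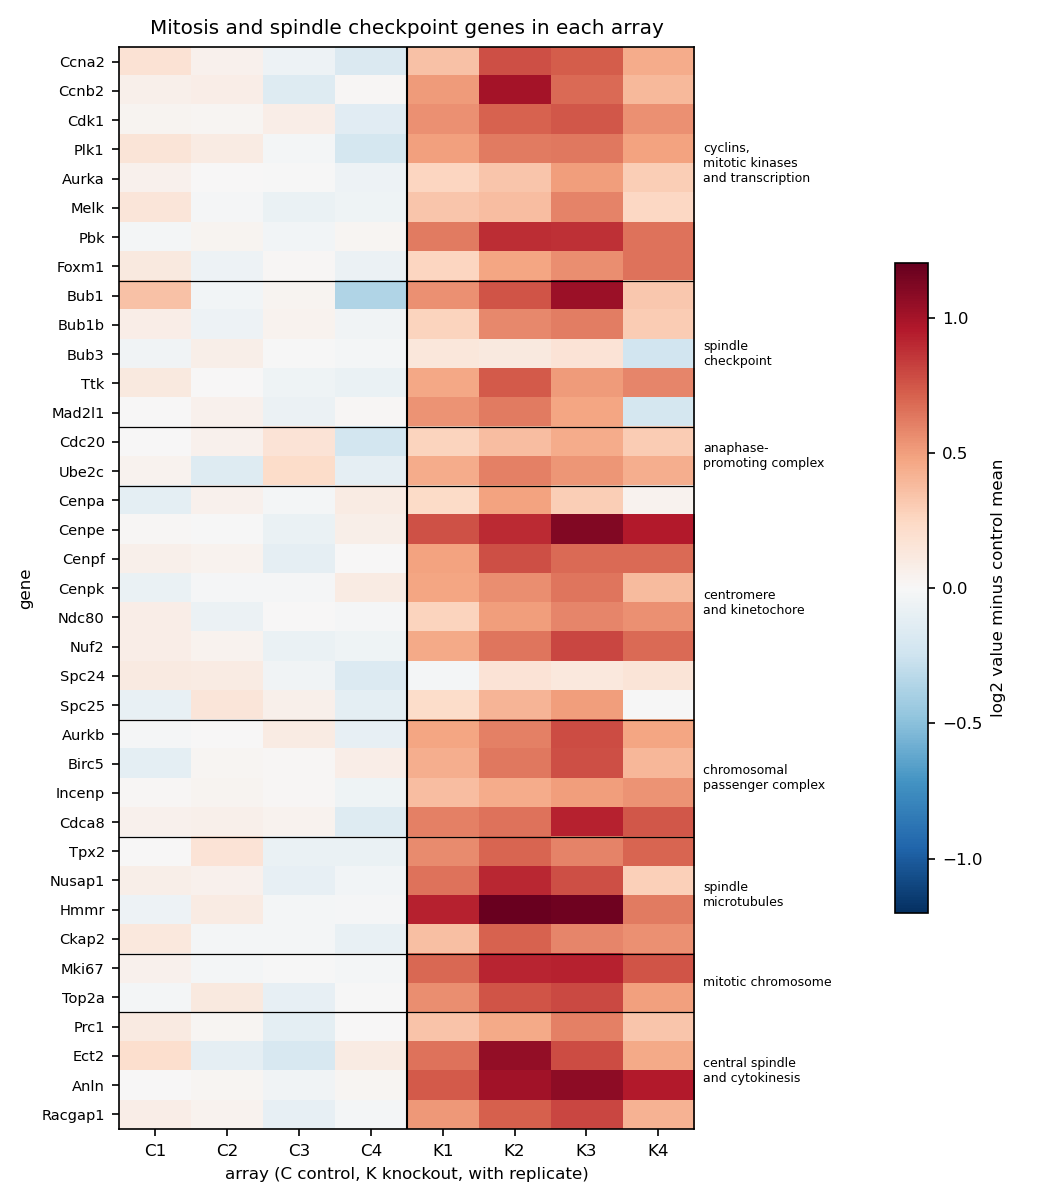
Each row is a gene and each column an array (C1 to C4 control, K1 to K4 knockout, by replicate number); colour gives the log2 value minus the mean of the 4 control arrays, with genes grouped by role. Red fills the knockout columns except for pale cells in Bub3, Spc24 and, in knockout replicate 4, Mad2l1, Cenpa and Spc25.

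The 4 knockout arrays were not equally high. Averaged over the 37 genes, values lay above the control mean by 0.45 in knockout replicate 1, 0.65 in replicate 2, 0.67 in replicate 3 and 0.44 in replicate 4, while the control arrays lay between -0.05 and 0.05. Replicates 2 and 3 were the higher arrays: the highest knockout value was that of replicate 3 in 21 genes and of replicate 2 in 14, and the lowest was that of replicate 1 in 19 genes and of replicate 4 in 18. The number of genes that exceeded every control array was 36 in knockout replicate 1, 37 in replicate 2, 37 in replicate 3 and 32 in replicate 4. The share of all genes that did so in a single array was not computed, so these counts only compare the arrays with each other. Without knockout replicate 4 the count of risen genes was 35, with Mad2l1, Cenpa and Spc25 added.

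Some markers of other cell types differed between the groups too. Over all genes 8.6% rose and 10.2% fell. Of 12 mesenchymal markers 5 rose and 0 fell, and their mean level was 8.19 to 8.63 in control and 8.53 to 8.97 in knockout arrays. Of 10 endothelial markers 5 rose and 0 fell, and their mean level was 9.10 to 9.46 in control and 9.50 to 9.61 in knockout arrays, without overlap. The table holds no detection calls, so absence of a marker cannot be read from it; the lowest of the mesenchymal markers, Lum, read 4.51 to 4.69 in control and 4.58 to 4.64 in knockout arrays. Of 10 leukocyte markers 1 rose (Itgam, 0.56) and 1 fell (Lyz2, -0.93, from 13.15 in control arrays). Lyz2 lay near the epithelial marker Sftpc (13.38 in control arrays) and far above the next leukocyte marker, Laptm5 (10.96). Which cells the Lyz2 transcripts came from was not tested, so its fall cannot be read as one of leukocytes. The mean level of the 10 leukocyte markers, with Lyz2 included, was 9.66 in control and 9.70 in knockout arrays. Of 5 erythroid markers 0 rose and 0 fell, with a mean level of 6.59 in control and 6.64 in knockout arrays. Of 8 epithelial markers 2 rose and 0 fell: the keratins Krt19 by 0.62 (SE 0.086, limma adjusted p = 5.39e-04) and Krt8 by 0.27 (SE 0.079, adjusted p = 0.0368), both without overlap between the groups. Epcam averaged 10.06 ± 0.15 (SD, n = 4) in the control group and 10.07 ± 0.17 in the knockout group, and Cdh1, the epithelial cadherin, at 12.10 in both groups. With the mesenchymal mean of each array as a covariate, 24 of the 37 genes still rose in limma's test and the median difference was 0.62. Of all 19938 genes 572 rose in that fit. With the endothelial mean as a covariate, which was added after its values were seen and lies apart in the groups, 12 rose and the median difference was 0.61. In the fit with the endothelial mean 178 of all 19938 genes rose. Without a covariate the median difference of the 37 genes was 0.57, and 1715 of all 19938 genes rose. Single genes moved either way: with the mesenchymal mean Foxm1 went from 0.49 to 0.38 and Cdc20 from 0.35 to 0.43. As the endothelial mean lies apart in the groups, its share in the differences cannot be told from that of the knockout. Whether cell composition accounts for the rises was not tested. The 12 genes that passed with the endothelial covariate were Cdk1, Plk1, Pbk, Ttk, Cdc20, Cenpe, Aurkb, Cdca8, Tpx2, Hmmr, Mki67 and Anln. The other 20 risen genes did not pass there, at differences from 0.36 (Prc1) to 0.96 (Bub1).

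**Figure D2:**
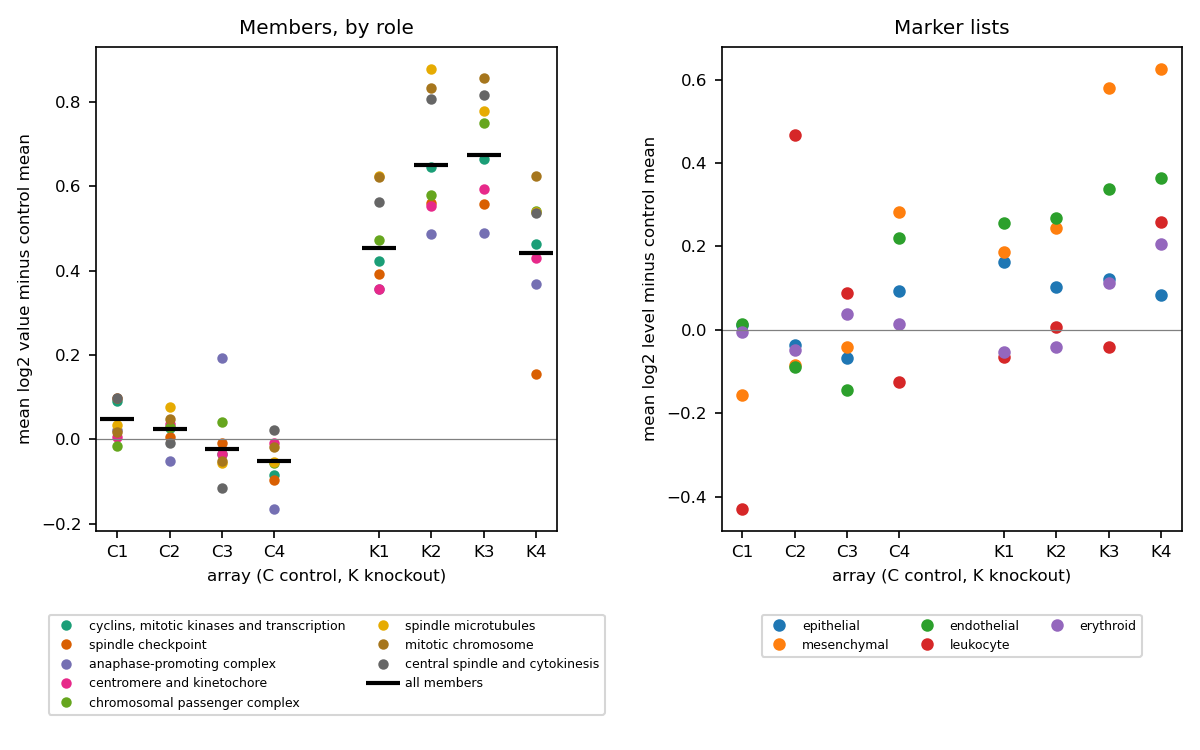
Left, the mean log2 value minus control mean in each array for the genes of each role (points) and for all 37 genes (black bars, 0.44 to 0.67 in knockout arrays); right, the mean log2 level of each marker list minus its control mean. The endothelial mean is higher in every knockout array than in any control array. The mesenchymal mean is higher in knockout arrays on average only, as C4 lies above K1 and K2. C4 is the highest control array in both lists.

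Promoter sequence was examined because these genes moved together and their promoters are known to share short elements. Promoters of genes expressed at G2 and mitosis often hold the cell cycle genes homology region (CHR), with the letters TTTGAA, to which the DREAM and MuvB complexes bind, and CCAAT boxes bound by the factor NF-Y. RefSeq windows of 300 bases, from 250 before to 50 after a start site (assembly GRCm38.p6), were found for 30 of the 37 genes, 35 windows in all. TTTGAA, on either strand, was present in 71.4% of these windows and in 17.9% of all 32851 windows of the table. CCAAT, on either strand, was present in 80% against 37.4%, and both together in 65.7% against 6.95%. The E2F letters TTNNCGC, searched with each N as C or G, stood in 17.1% against 9.57%. The letters GGAATG, which Tead factors, the DNA-binding partners of Yap, recognise, stood in 14.3% against 14.7%. Base composition differed as well, with a median GC content of 58.7% in the windows of these genes and 52.7% in all windows. A match describes letters only.

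**Figure D3:**
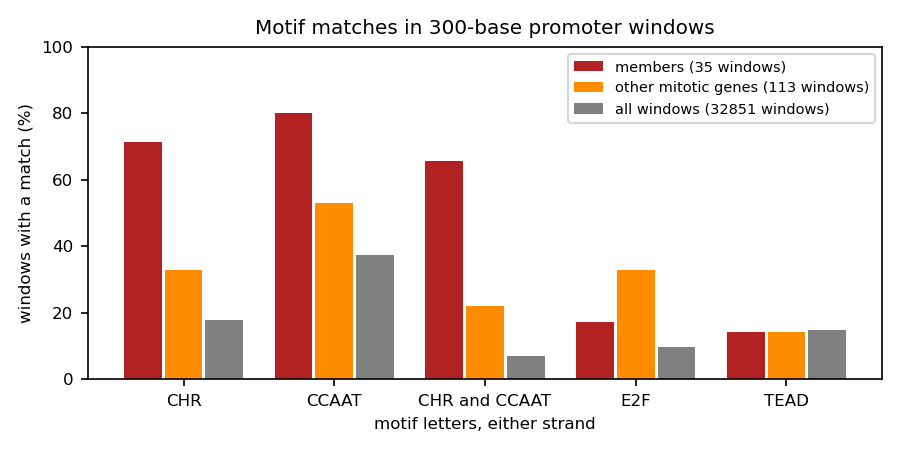
Bars give the share of 300-base promoter windows that hold each set of letters on either strand, for 30 of the 37 genes (red, 35 windows), 99 of the 118 other mitotic genes (orange, 113 windows) and all windows of the RefSeq table (grey). CHR and CCAAT bars are highest for the red group (71.4% and 80%), the E2F bar is highest for the orange group (32.7%), and the TEAD bars are level (14.3%, 14.2% and 14.7%).

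The windows printed here are those of the genes with the largest rise in 4 roles (Ccnb2 among regulators, Bub1 in the checkpoint, Cenpe at the kinetochore and Anln in cytokinesis, of the genes with a window) and of Bub3, whose difference was the smallest. They are given 5′ to 3′ on the strand of the gene, with capitals marking TTTGAA and CCAAT on either strand. For Bub3 the first of its 2 windows is given.
Ccnb2, chr9:70421505-70421804, minus strand: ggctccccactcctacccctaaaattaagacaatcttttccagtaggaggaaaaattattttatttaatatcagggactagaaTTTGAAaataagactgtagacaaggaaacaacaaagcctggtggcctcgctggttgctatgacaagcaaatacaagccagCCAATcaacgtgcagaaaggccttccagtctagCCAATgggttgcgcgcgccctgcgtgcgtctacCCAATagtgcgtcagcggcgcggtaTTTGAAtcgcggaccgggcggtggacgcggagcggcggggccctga
Bub1, chr2:127831810-127832109, minus strand: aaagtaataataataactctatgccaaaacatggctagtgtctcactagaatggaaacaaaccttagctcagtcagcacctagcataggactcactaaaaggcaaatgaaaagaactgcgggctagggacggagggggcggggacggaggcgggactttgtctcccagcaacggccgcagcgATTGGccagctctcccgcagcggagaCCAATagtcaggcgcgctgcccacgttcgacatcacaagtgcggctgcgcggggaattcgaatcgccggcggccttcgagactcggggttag
Cenpe, chr3:135212313-135212612, plus strand: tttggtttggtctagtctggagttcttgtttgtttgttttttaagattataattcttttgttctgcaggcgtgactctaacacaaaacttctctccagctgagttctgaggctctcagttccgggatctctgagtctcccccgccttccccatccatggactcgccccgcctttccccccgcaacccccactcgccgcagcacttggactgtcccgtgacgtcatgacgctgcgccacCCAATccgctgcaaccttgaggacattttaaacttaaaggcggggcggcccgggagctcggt
Anln, chr9:22389157-22389456, minus strand: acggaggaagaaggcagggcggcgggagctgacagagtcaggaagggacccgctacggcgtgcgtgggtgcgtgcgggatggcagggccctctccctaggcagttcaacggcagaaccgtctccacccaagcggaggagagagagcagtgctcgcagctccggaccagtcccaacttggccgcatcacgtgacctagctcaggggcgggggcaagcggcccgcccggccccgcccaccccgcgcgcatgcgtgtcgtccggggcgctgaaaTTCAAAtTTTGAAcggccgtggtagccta
Bub3, chr7:131560120-131560419, plus strand: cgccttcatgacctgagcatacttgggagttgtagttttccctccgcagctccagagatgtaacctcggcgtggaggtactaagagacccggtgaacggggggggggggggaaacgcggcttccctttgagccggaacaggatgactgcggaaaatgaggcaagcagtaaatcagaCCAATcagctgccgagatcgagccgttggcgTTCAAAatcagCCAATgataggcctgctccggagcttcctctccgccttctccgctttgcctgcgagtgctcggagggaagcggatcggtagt
In Ccnb2 the CCAAT boxes begin 87, 54 and 21 bases before the start site, and the TTTGAA nearer to it begins at base 5 of the transcript. Bub1 has CCAAT letters 68 and 42 bases before the start and no TTTGAA in this window. Cenpe has a single CCAAT, 12 bases before the start, and no TTTGAA. Anln has no CCAAT and a pair of TTTGAA letters, on opposite strands, at bases 22 and 29 of the transcript. Bub3, which did not pass the test, holds a TTTGAA 43 bases and CCAAT letters 74 and 32 bases before the start. The letters thus stood in windows of genes that rose and of one that did not pass, and neither set was present in every printed window of a gene that rose.

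The role of cyclins, mitotic kinases and transcription held 8 of the 37 genes. All 8 rose, by 0.35 to 0.76, and in each of them the groups did not overlap. Over all genes 8.6% rose, and in 10.2% all knockout values lay above all control values. Counts by role, here and in the paragraphs below, are to be read beside these shares. Cdc25b, which acts at entry to mitosis but is not among the 37, fell, as given below. Cdk1, the kinase that triggers mitosis (probe set 10369815), was at 9.12, 9.11, 9.16 and 8.95 in control replicates 1 to 4 and at 9.63, 9.79, 9.83 and 9.63 in knockout replicates 1 to 4. The lowest knockout value exceeded the highest control value, and the level was 1.55-fold higher (log2 difference 0.63, SE 0.072, limma adjusted p = 1.39e-04). Its partner cyclin B2, Ccnb2, went from 9.12, 9.13, 8.90 and 9.07 to 9.57, 10.05, 9.73 and 9.44, with the highest value in knockout replicate 2 (0.64, SE 0.12). Ccna2, cyclin A2, which acts in S phase and up to early mitosis, rose by 0.58 (SE 0.11), though its values in knockout replicate 1 (9.12) and control replicate 1 (8.94) lay close.

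Among the kinases that act beside Cdk1, Pbk, a mitotic kinase first described in T cells, showed the largest rise. It was at 6.28, 6.34, 6.27 and 6.33 in control and at 6.93, 7.19, 7.18 and 6.96 in knockout arrays, 1.69-fold higher (0.76, SE 0.072, limma adjusted p = 5.30e-05). The control arrays differed little among themselves (SD 0.04) and replicates 2 and 3 led the knockout arrays. Plk1, which promotes centrosome maturation and mitotic entry, rose 1.47-fold (0.56, SE 0.084). Aurka, the centrosomal Aurora kinase, and Melk, a kinase abundant in progenitor cells, rose less, by 0.35 (SE 0.066) and 0.39 (SE 0.084). Foxm1, the transcription factor that activates many genes of G2 and mitosis, was at 7.71, 7.53, 7.61 and 7.52 in control and at 7.85, 8.07, 8.15 and 8.24 in knockout arrays. Its rise was 0.49 (SE 0.087, limma adjusted p = 0.00274), and knockout replicate 4, the lowest knockout array in 18 of the 37 genes, held the highest value. With the mesenchymal mean as a covariate Aurka, Melk and Foxm1 no longer passed (adjusted p = 0.0947, 0.105 and 0.126), at differences of 0.33, 0.41 and 0.38 with wider errors (SE 0.10, 0.13 and 0.13). With the endothelial mean these 3 genes (0.37, 0.37 and 0.44, adjusted p = 0.193, 0.344 and 0.248), Ccna2 (0.69, adjusted p = 0.126) and Ccnb2 (0.64, adjusted p = 0.217) did not pass.

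The spindle checkpoint was uneven. Of its 5 genes 3 rose and 2 did not pass, with differences from 0.05 to 0.67. Ttk, the kinase Mps1 at the head of checkpoint signalling, went from 6.03, 5.92, 5.87 and 5.84 to 6.38, 6.65, 6.43 and 6.50 without overlap (1.49-fold, 0.57, SE 0.072, limma adjusted p = 2.79e-04). Bub1, the kinase that recruits other checkpoint proteins, was at 8.15, 7.77, 7.84 and 7.44 in control and at 8.35, 8.56, 8.83 and 8.13 in knockout arrays. It passed (0.67, SE 0.16, adjusted p = 0.0160) with the widest error of the 37 genes, and control replicate 1 lay just above knockout replicate 4. Bub1b, which encodes BubR1, a subunit of the complex that holds Cdc20, rose by 0.44 (SE 0.087).

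The checkpoint genes that did not pass were those in which knockout replicate 4 read below every control array. Mad2l1, which encodes the Mad2 protein that binds Cdc20, was at 8.52, 8.57, 8.45 and 8.53 in control and at 9.06, 9.14, 8.99 and 8.31 in knockout arrays. Knockout replicates 1 to 3 lay above and replicate 4 below every control array (0.36, 95% confidence interval 0.02 to 0.69 before adjustment, limma adjusted p = 0.145). Without knockout replicate 4 the difference was 0.54 and passed (adjusted p = 1.87e-04). Bub3, the adaptor that docks Bub1 and BubR1 on the kinetochore and is present through the whole cell cycle, was at 9.41, 9.52, 9.45 and 9.43 in control and at 9.59, 9.57, 9.62 and 9.22 in knockout arrays. Its groups overlapped through replicate 4 (0.05, 95% interval -0.14 to 0.24), and it did not pass in any alternative run.

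Of the anaphase-promoting complex the activator Cdc20 and the ubiquitin-conjugating enzyme Ube2c are included, and both rose. Cdc20 was at 7.78 to 8.16 in control and at 8.26, 8.37, 8.44 and 8.30 in knockout arrays. This was among the smaller rises (1.27-fold, 0.35, SE 0.083, limma adjusted p = 0.0136), with groups that came near but did not overlap. Ube2c rose by 0.50 (SE 0.087).

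At the centromere and kinetochore 5 of 8 genes rose and 3 did not pass. Cenpe, the kinesin that moves chromosomes to the spindle equator, was at 6.86, 6.84, 6.77 and 6.92 in control and at 7.61, 7.74, 7.96 and 7.80 in knockout arrays. The groups were separated by more than either group's own range (0.93, SE 0.077, limma adjusted p = 2.28e-05). Cenpf, a large protein of the outer kinetochore, rose by 0.66 (SE 0.072), and Cenpk, of the inner kinetochore network that stays at centromeres, by 0.51 (SE 0.070). Cenpa, the histone H3 variant that marks centromeres, did not pass, at 8.17, 8.34, 8.27 and 8.39 in control and 8.52, 8.77, 8.59 and 8.33 in knockout arrays (0.26, SE 0.092, adjusted p = 0.0748). Only knockout replicate 4 overlapped the control arrays there, and without it Cenpa passed (0.34, adjusted p = 0.0126).

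The Ndc80 complex, a rod of 4 proteins that grips microtubules, did not move as a whole. The outer members rose: Ndc80 by 0.48 (SE 0.076) and Nuf2 from 7.03, 6.99, 6.87 and 6.90 to 7.40, 7.59, 7.75 and 7.63 (0.64, SE 0.079). The inner members, which anchor the rod in the kinetochore, did not pass. Spc25 was at 6.33, 6.56, 6.48 and 6.30 in control and at 6.64, 6.83, 6.92 and 6.41 in knockout arrays, with knockout replicate 4 inside the control range (0.28, SE 0.11, limma adjusted p = 0.112). Without that array it passed (0.38, adjusted p = 0.0135). Spc24 was at 7.41, 7.40, 7.26 and 7.14 in control and at 7.28, 7.47, 7.43 and 7.46 in knockout arrays, where replicate 1 instead lay within the control range (0.10, 95% interval -0.06 to 0.27, adjusted p = 0.433). The difference between the outer and inner members was not tested.

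All 4 members of the chromosomal passenger complex, which corrects faulty attachments and later marks the site of cleavage, rose with no overlap between groups. Its kinase Aurkb was at 8.39, 8.41, 8.50 and 8.31 in control and at 8.88, 9.01, 9.19 and 8.88 in knockout arrays (0.59, SE 0.079, limma adjusted p = 4.49e-04). Cdca8, which encodes borealin, rose most (0.74, SE 0.082), from 6.80 to 7.01 in control arrays to 7.56, 7.60, 7.88 and 7.70 in knockout arrays. Control replicate 4 was the low array there, and the groups were apart with or without it. Birc5, which encodes survivin, rose by 0.56 (SE 0.088), and Incenp, the scaffold that activates Aurora B, by 0.46 (SE 0.057), the difference with the smallest error of the 37.

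Genes of the spindle microtubules also rose in all 4 cases. Hmmr, the hyaluronan receptor that binds spindle poles inside the cell, had the largest difference of the 37 genes. It was at 6.01, 6.17, 6.05 and 6.06 in control and at 6.70 to 7.26 in knockout arrays, 1.97-fold higher (0.98, SE 0.11, limma adjusted p = 1.68e-04). Control values were tight, while the knockout arrays spread over a wider range with replicate 4 lowest. Nusap1, which bundles microtubules around chromosomes, spread likewise, with 8.41, 8.66, 8.53 and 8.04 in knockout arrays against 7.82, 7.81, 7.66 and 7.72 in control (0.65, SE 0.12). Tpx2, the activator of Aurora A on the spindle, did not follow that order, with knockout values of 7.90, 8.04, 7.93 and 8.04 against 7.34, 7.50, 7.26 and 7.26 (0.64, SE 0.070). Ckap2, a microtubule-associated protein, rose by 0.55 (SE 0.081).

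Mki67 and Top2a, proteins of the mitotic chromosome, rose together. Mki67, which coats chromosomes and keeps them apart, was at 9.11, 9.03, 9.05 and 9.03 in control and at 9.74, 9.97, 9.98 and 9.81 in knockout arrays (1.77-fold, 0.82, SE 0.067, limma adjusted p = 2.22e-05). The control arrays lay within a narrow band and every knockout array stood well above it. Top2a, the topoisomerase that untangles sister chromatids, went from 8.22, 8.36, 8.14 and 8.23 to 8.80, 8.99, 9.03 and 8.73 with probe set 10390707 (0.65, SE 0.081). A second Top2a probe set, 10390746, read lower, at 4.72 to 5.11 in control and 4.92 to 5.21 in knockout arrays. It gave a difference of 0.23 (SE 0.097) that did not pass (limma adjusted p = 0.177 over all probe sets). Probe sets 10394731 and 10408329, each annotated with Top2a and another symbol, averaged 7.40 and 7.70 in control arrays. Their differences of 0.10 (SE 0.10) and 0.05 (SE 0.092) did not pass either (limma adjusted p = 0.63 and 0.82 over all probe sets). The difference between the probe sets was not tested.

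The last steps, the central spindle and cytokinesis, held some of the largest rises, with 4 of 4 genes up. Anln, anillin, which links actin, myosin and septins in the cleavage furrow, was at 7.71, 7.73, 7.66 and 7.73 in control and at 8.44, 8.71, 8.78 and 8.66 in knockout arrays. It had the smallest adjusted p of the 37 genes (1.92-fold, 0.94, SE 0.074, limma adjusted p = 1.94e-05), with control values tighter (SD 0.03) than knockout values (SD 0.15). Ect2, the exchange factor that switches on RhoA at the furrow, was at 8.82, 8.51, 8.43 and 8.72 in control and 9.27, 9.67, 9.40 and 9.07 in knockout arrays (0.73, SE 0.13). Racgap1, its binding partner in centralspindlin, rose by 0.62 (SE 0.088). Prc1, which bundles the antiparallel microtubules of the central spindle, rose by 0.43 (SE 0.077).

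**Figure D4:**
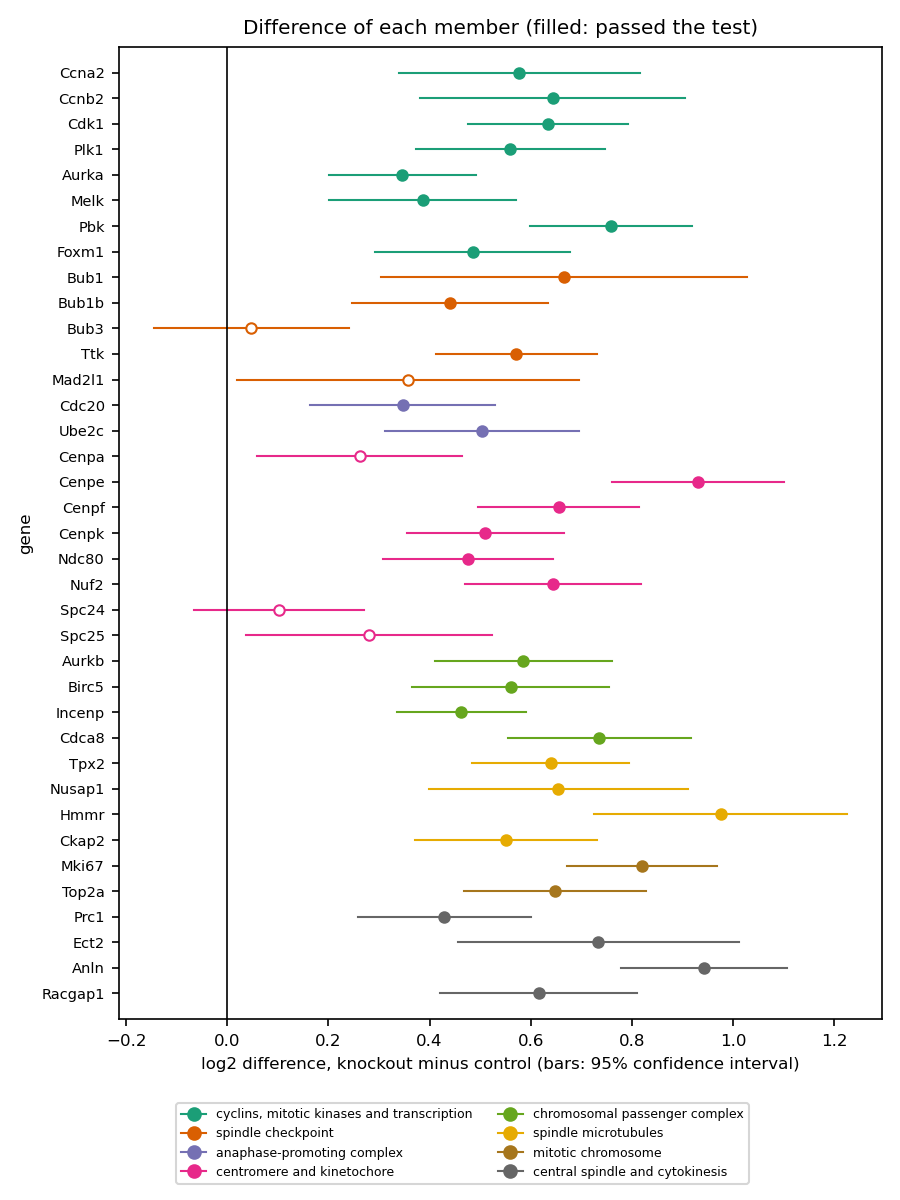
Points give the log2 difference of each gene, knockout minus control, with its 95% confidence interval before adjustment; filled points passed limma's test after adjustment over all genes, and colours give the role. The open points are Bub3, Mad2l1, Cenpa, Spc24 and Spc25, and the largest differences are those of Hmmr (0.98), Anln (0.94) and Cenpe (0.93).

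A list of other mitotic genes, with kinesins left out, moved less uniformly. Among the 118 that were measured, 48 rose (40.7%), 5 fell and 65 missed the threshold. Over all genes 8.6% rose and 10.2% fell, and the counts by role are to be read beside these shares. The median difference was 0.18. In the 113 promoter windows found for 99 of them TTTGAA was present in 32.7%, CCAAT in 53.1%, the E2F letters in 32.7%, a larger share than in the windows of the 37 genes (17.1%), and GGAATG in 14.2%. In condensin, the complexes that compact chromosomes, 7 of 8 subunits rose, led by Ncapg (6.56, 6.56, 6.41 and 6.47 in control and 7.44, 7.61, 7.57 and 7.31 in knockout arrays, 0.98, SE 0.076). Among 24 further centromere and kinetochore genes 12 rose and 1 fell. Knl1, the scaffold on which Bub1 assembles, rose by 0.75 (SE 0.073), while Cenpu, an inner kinetochore protein, fell by 0.25 (SE 0.073, limma adjusted p = 0.0379). Among 7 further checkpoint genes 3 rose and 1 fell: Kntc1, a subunit of the complex that brings dynein and Mad2 to kinetochores, rose by 0.64 (SE 0.083), and Mad2l1bp, which helps to switch the checkpoint off, fell by 0.31 (SE 0.091, adjusted p = 0.0369).

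In 5 further roles (the anaphase-promoting complex, cohesion, spindle microtubules, cytokinesis, and DREAM and MuvB) most genes did not pass. Of 16 genes of the anaphase-promoting complex and its partners 3 rose and 0 fell, and of 14 cohesion genes 4 rose and 0 fell. The smallest p in these groups was that of Fbxo5, the inhibitor Emi1 (0.22, SE 0.065, limma adjusted p = 0.0355), and of Esco2, the acetyltransferase that establishes cohesion in S phase (0.67, SE 0.076, adjusted p = 1.47e-04). Of 19 further genes of spindle microtubules 8 rose and 0 fell, among them Spag5, which encodes the spindle protein astrin (0.54, SE 0.068). Of 7 further cytokinesis genes 3 rose and 0 fell, with Depdc1a at 0.94 (SE 0.094). Of 11 genes listed under the DREAM and MuvB complexes 2 rose and 1 fell, where 8.6% of all genes rose and 10.2% fell. Mybl1, a Myb factor, rose by 0.55 (SE 0.072), and Lin52, a MuvB subunit, fell by 0.38 (SE 0.093, adjusted p = 0.0158).

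In the control of cyclin B and Cdk1, genes moved in opposite directions. Of 12 measured genes 6 rose and 2 fell. Cdc25b, a phosphatase that activates cyclin-dependent kinases at entry to mitosis, was at 9.26, 9.45, 9.33 and 9.44 in control and at 8.87, 8.79, 8.87 and 8.85 in knockout arrays. Every knockout array lay below every control array (1.44-fold lower, -0.52, SE 0.062, limma adjusted p = 1.80e-04). Wee1, the kinase that opposes Cdc25 on Cdk1, fell by 0.24 (SE 0.066, adjusted p = 0.0287). Cdc25c, a paralogue of Cdc25b named after its values were seen, went the other way, from 6.54, 6.39, 6.46 and 6.38 to 6.88, 7.05, 7.11 and 6.88 (0.54, SE 0.072, adjusted p = 4.18e-04).

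Single arrays decided several of the weaker calls in that list. Wee1 no longer passed when control replicate 2 or 4 or knockout replicate 1, 2 or 3 was left out (-0.24 to -0.18, adjusted p = 0.0542 to 0.0829). That of Cenpu ended without control replicates 2 or 3 or any 1 of the knockout arrays (-0.26 to -0.20, adjusted p = 0.0567 to 0.108). Those of Mad2l1bp and Fbxo5 ended when any 1 control array or knockout replicate 2, 3 or 4 was left out (Mad2l1bp -0.34 to -0.25, adjusted p = 0.0531 to 0.112; Fbxo5 0.18 to 0.24, adjusted p = 0.0509 to 0.0944). With the mesenchymal mean as a covariate Lin52 (-0.27, adjusted p = 0.341), Cenpu (-0.15, adjusted p = 0.530), Mad2l1bp (-0.16, adjusted p = 0.587), Wee1 (-0.33, adjusted p = 0.0675) and Fbxo5 (0.16, adjusted p = 0.461) did not pass. With the endothelial mean Cenpu was at -0.02 (adjusted p = 0.986), Mad2l1bp at -0.34 (adjusted p = 0.458), Lin52 at -0.42 (adjusted p = 0.312), Wee1 at -0.42 (adjusted p = 0.0627) and Fbxo5 at 0.25 (adjusted p = 0.445). Of the genes named for a rise, Mybl1 (0.33, adjusted p = 0.167), Kntc1 (0.52, adjusted p = 0.128) and Spag5 (0.56, adjusted p = 0.0561) did not pass with it either. Without knockout replicates 1 and 4 together Lin52 was at -0.28 (adjusted p = 0.0504). The fall of Cdc25b passed under every alternative run.

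**Figure D5:**
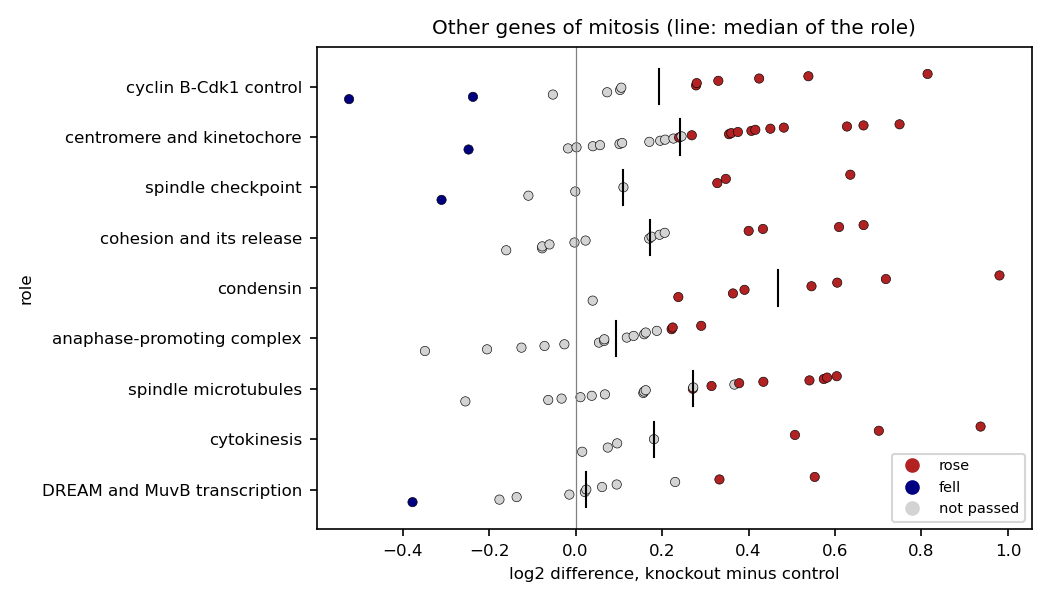
Each point is a gene of the list of other mitotic genes, placed by its log2 difference, knockout minus control; red points rose, blue points fell and grey points did not pass limma's test, and black lines mark the median of each role. Condensin lies farthest to the right, and the lowest point is Cdc25b (-0.52).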

How the data were processed

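The authors deposited 1 table of log2 expression for 35556 probe sets in 8 arrays hybridised, per the labels' protocols, with biotin-labelled total RNA. The log2 scale was read from the values. How they were summarised and normalized is not given in the sources used here. Array medians lay between 7.21 and 7.30 and no further scaling was applied, so differences are relative to the array as a whole. Arrays hold no counts, and their number limits the precision. Symbols came from GEO's platform annotation (21789 probe sets with 1 symbol, 1621 with several, 12146 with none given), and all 37 members matched RefSeq by gene number. Of several probe sets of a gene the one with the highest mean was used.

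The group difference was fitted in R 4.3.3 with limma 3.58.1 (lmFit, then eBayes) over 19938 genes, two-sided, with Benjamini-Hochberg adjustment and a threshold of 0.05, after the step had been tested on simulated data. Errors are limma's moderated standard errors, or standard deviations over 4 arrays. Promoter windows came from RefSeq. The members, the lists of other mitotic genes and markers, and the motifs were chosen with earlier results of these data known, so their counts are descriptions. All members are named, and of the other mitotic genes the one with the smallest p in each role and each that fell. Alternatives were a replicate block, other scalings, a level filter, other probe set rules, other moderation, leaving out arrays, and marker means as covariates. Some genes of the list of other mitotic genes, among them Ccnb1, Hjurp, Haus3 and Sept7, were not analysed here.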

Additional observations from a re-analysis of the deposited data

Results flagged for a closer look

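In 74 groups of 4 arrays (37 genes in 2 groups), 2 had an array far from the other 3, where chance alone gives about 1 in 20. Bub3 in knockout replicate 4 was at 9.22, against 9.57 to 9.62 in the other knockout arrays. Cdca8 in control replicate 4 was at 6.80, against 6.99 to 7.01 in the other control arrays.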

How the results depend on the processing

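Each of the 32 risen genes passed when any 1 array was left out (32 to 35 calls), under both other scalings, with the mean of probe sets, with adjustment over all probe sets and with the leukocyte or erythroid mean as a covariate. The mean of probe sets changed the values of Top2a only, the 1 gene of the 37 with several probe sets. Over 725 pairs of a gene and an alternative, 688 kept their call, 28 lost it, 9 gained it and 0 changed sign. Among genes above the median level 22 of the 37 were tested and 19 rose, and 20 of 74 other mitotic genes rose. Of all 9969 genes tested there 1483 rose. The endothelial covariate, added after the data were seen, left 12 risen genes, 7 risen and 1 fallen other mitotic genes, and 502 called genes in all (178 higher, 324 lower). The mesenchymal covariate left 24, then 21 and 1, and 1330 in all (572 higher, 758 lower, against 3746, of which 1715 higher and 2031 lower, without it). The 8 of the 37 genes it lost were Aurka, Birc5, Bub1b, Cdc20, Foxm1, Melk, Ndc80 and Prc1, at differences from 0.33 (Aurka) to 0.48 (Birc5) and adjusted p from 0.0638 to 0.126. The 20 lost with the endothelial covariate were Ccna2, Ccnb2, Aurka, Melk, Foxm1, Bub1, Bub1b, Ube2c, Cenpf, Cenpk, Ndc80, Nuf2, Birc5, Incenp, Nusap1, Ckap2, Top2a, Prc1, Ect2 and Racgap1 (adjusted p from 0.0523 to 0.344). The number of fallen other mitotic genes, 5, was 2 to 4 when single arrays were left out, 2 without knockout replicates 1 and 4 together (35 of the 37 genes rose there) and 3 with adjustment over all probe sets. The cause was not tested. A block for the replicate number gave 33 risen genes, with Spc25 added (adjusted p = 0.0323), and 42 risen other mitotic genes against 48. Same-numbered arrays did not deviate together (correlations -0.08 to 0.10), and 1 of 8 arrays correlated best with its own number, so the numbers were not treated as pairs.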
